A study of Bos taurus with 12 samples.

Results

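High (H) and low (L) responders to ovarian superstimulation were compared in the unstimulated (U) cycle, that is, before any follicle-stimulating hormone had been given. The comparison used 6 of the 12 libraries of the series, 3 from high responders (UH1 to UH3) and 3 from low responders (UL1 to UL3), each from a different heifer. All animals were Charolais- or Limousin-cross heifers aged 21 to 32 months, kept under the same farm conditions, whose cycles had been synchronized with a progesterone device, a gonadotrophin-releasing hormone and prostaglandin F2α. Blood was taken on Day 7, and the label H or L came from the number of corpora lutea that the same heifers formed after the later FSH treatment, at the upper and the lower end of the animals treated. The libraries were made from RNA of plasma extracellular vesicles (EVs), and a miRNA entered the comparison when 2 or more of the 3 libraries of either group held a read of it. This left 227 of the 783 bovine miRNAs listed, out of 304 with a read in any of the 6 libraries.

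Plasma EVs are membrane-bound particles that many tissues release, so their miRNAs are a mixture from blood cells, vessel walls, liver, muscle and other organs. A miRNA pairs with its targets mainly through its seed, bases 2 to 8 from the 5′ end, and miRNAs with the same seed form a family. Some miRNAs are made largely in a single tissue, such as miR-1, miR-133 and miR-206 in striated muscle, miR-122 in the liver, miR-126 in endothelium and miR-223 in myeloid cells, and these serve as tissue markers in plasma. In such a mixture, more vesicles from a tissue and more of a miRNA in each vesicle cannot be told apart.

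The sequences below are those that the comparison turned on, as listed by the authors (DNA letters, 5′ to 3′), with the seed in capitals. The first 5 are the muscle miRNAs, in which miR-1 and miR-206 share a seed, as do miR-133a and miR-133b.
miR-206: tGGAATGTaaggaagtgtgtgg
miR-1: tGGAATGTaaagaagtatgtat
miR-133a: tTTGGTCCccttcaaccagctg
miR-133b: tTTGGTCCccttcaaccagcta
miR-499: tTAAGACTtgcagtgatgttt
The next 5, each with a seed of its own, are the other miRNAs that passed the thresholds given below.
miR-205: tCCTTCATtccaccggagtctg
miR-27a-5p: aGGGCTTAgctgcttgtgagca
miR-2300b-3p: gGGAGACAaaactagctgagga
miR-2285p: aAAAACTTgagtgaacttttgg
miR-6517: tCAGGGTCcgtgagctcctcggc
The last 3 are the let-7 members that held many of the reads.
let-7b: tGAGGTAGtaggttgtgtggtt
let-7a-5p: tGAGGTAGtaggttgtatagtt
let-7c: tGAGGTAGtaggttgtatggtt
Over 22 bases, miR-1 and miR-206 differed at 4 positions and miR-133a and miR-133b at 1, while let-7c differed from let-7b at 1 position and from let-7a-5p at 1. The split of reads between members that differ at a single base is therefore less certain than their sum.

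Reads of known miRNAs numbered 30289 to 74057 in the UH and 41178 to 52473 in the UL libraries. They were scaled to a common depth (normalized reads), and differences are log2 fold changes, UH minus UL, of normalized reads + 1, a scale that understates changes of miRNAs with few reads. The library UL1 stood apart from the other 5 in its rank order and its muscle miRNAs. Over the 101 miRNAs with a mean of at least 10 normalized reads, Spearman's rho of UL1 with another library was 0.84 to 0.91, and rho between the other libraries was 0.90 to 0.95, as a description. In the size of differences UL1 did not stand apart. Its median absolute log2 difference from another library was 0.35 to 0.56, and the largest of any pair was 0.71, between UH2 and UH3. The muscle list held 4.52% of the reads of UL1 against 0.07 to 0.33% in the other 5 libraries. The results are therefore given with UL1 and, where it matters, without it. The ratio of miR-451, a red blood cell miRNA, to miR-23a was 0.50 in UL1 and 0.085 to 0.50 in the other libraries.

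Below, called miRNAs are those with a change of 1 or more on the log2 scale, in either direction, whose P before adjustment did not exceed 0.05 (limma, two-sided). Few miRNAs passed. Of the 227 tested, 6 were called (2.64%), with 2 higher (0.881%) and 4 lower (1.76%) in UH. Those lower were miR-206, miR-205, miR-27a-5p and miR-2300b-3p, and those higher were miR-2285p and miR-6517. After Benjamini-Hochberg adjustment of the limma fit, 0 of 227 were under 0.05, while 6 had an unadjusted P of at most 0.05, and both counts were the same without UL1. Without UL1, 4 were called (1.76%), of which 3 were lower (1.32%), and all 4 were among the 6: miR-206, miR-205, miR-2300b-3p and miR-2285p.

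**Figure D1:**
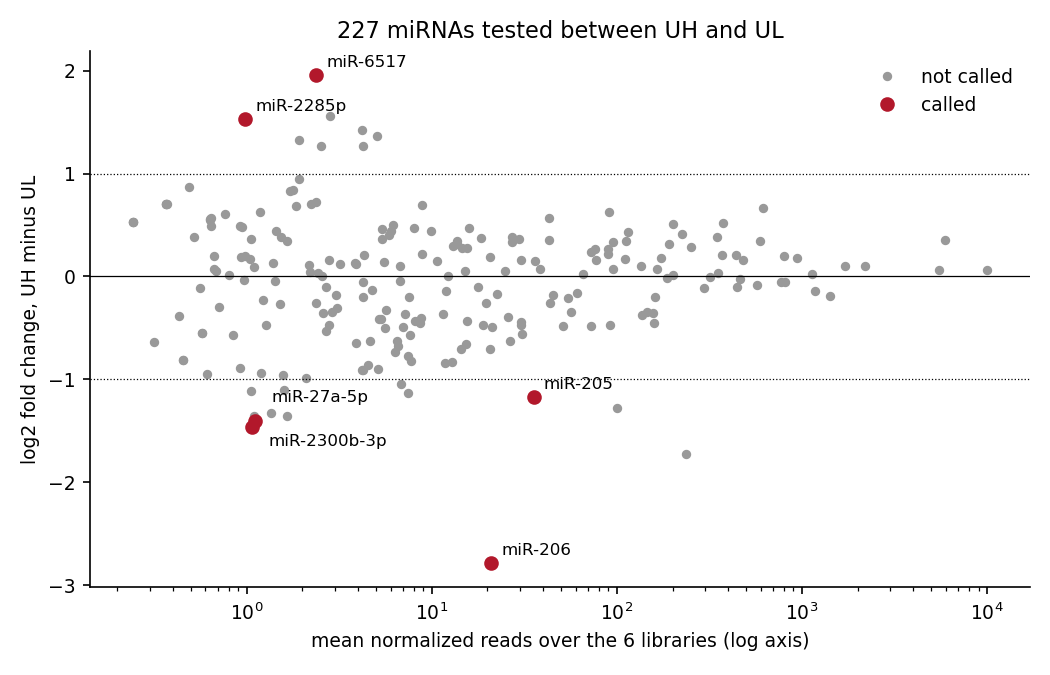
Log2 fold change (UH minus UL) of each of the 227 miRNAs against its mean normalized reads over the 6 libraries (log axis), with the 6 called miRNAs in red and dotted lines at -1 and 1. Of the called miRNAs, 4 lie at the left, with at most 6 reads in any library, and miR-206 is the lowest point of all.

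MiR-206, a miRNA of skeletal muscle, showed the largest difference of all miRNAs tested. It had 4.40, 1.42 and 3.76 normalized reads in UH1, UH2 and UH3, from 3, 2 and 5 reads. In UL1, UL2 and UL3 it had 86.6, 17.2 and 11.9, from 94, 19 and 12 reads. Every UL library was above every UH library, and UL1 was by far the highest. The means were 3.20 ± 1.57 in UH and 38.6 ± 41.7 in UL (SD, n = 3 each), with a log2 fold change of -2.79 ± 0.73 (SE) and an adjusted p of 0.322 (limma). Without UL1, the mean of UL was 14.5 and the log2 fold change -1.95 (95% interval -3.66 to -0.23), with an adjusted p of 0.980 (limma). On the means, UL was 12.1 times UH with UL1 and 4.54 times without, so the size of the difference depended on UL1 and its direction did not. It was called without any 1 of the 6 libraries, at -3.33 to -1.95 on the log2 scale. With UL1 left out, however, the call was lost with mapped reads as library sizes and when UH2, UL2 or UL3 was left out as well.

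MiR-205, a miRNA of epithelia, was the only other called miRNA with more than 6 reads in a library. It had 10.3, 22.8 and 32.3 normalized reads in UH and 25.8, 61.4 and 60.3 in UL. Here UL1 was the library nearest to UH, and with it the groups overlapped. The log2 fold change was -1.17 ± 0.48 (SE) with an adjusted p of 0.929 (limma), and became -1.58 (95% interval -2.63 to -0.52) without UL1. The call was lost without UH1 (-0.73), UL2 (-0.97) or UL3 (-0.98), so it rested on libraries of both groups.

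The 4 remaining calls rested on very few reads. Each of these miRNAs met the minimum for the test only through the group in which it was higher. The filter thus favoured a separation of the groups for them, and their lack of overlap adds no support. MiR-6517 was read 5, 2 and 6 times in UH1, UH2 and UH3 and 0, 1 and 0 times in UL. On the means, UH was at least 1.57-fold higher when UL is set at the limit of 3 reads per library, although UH2 was itself under that limit. MiR-6517 was not called without UL1 or without UL3. Its groups did not overlap with or without UL1, which the filter favoured. MiR-2285p was read 2 times in every UH library and 0 times in every UL library, so both groups were within the limit of 3 reads and no fold is given. MiR-2300b-3p showed the reverse, with 0 reads in UH and 1, 5 and 1 in UL. These were the only miRNAs with a read in all 3 libraries of 1 group and in none of the other. MiR-27a-5p, the less abundant arm of its hairpin, had no read in UH and was read 4, 0 and 3 times in UL, and was not called without UL1. The call of miR-2300b-3p was lost without UH2, UH3 or UL2, and that of miR-27a-5p without any library other than UL2. For both, the mean of UL was below the limit that UH allows, and no fold is given.

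The same heifers were sampled again after superstimulation, which gave libraries outside this comparison (SH and SL). MiR-206 had 3.01 to 8.04 normalized reads in SH and 12.4 to 40.5 in SL, so the groups again did not overlap, in the same order. MiR-6517 had 4, 1 and 5 reads in SH and 0 in each SL library. For both miRNAs the exact permutation test gave p = 0.1 (two-sided) in each cycle, the smallest value that 3 against 3 libraries allow. Both were picked for their difference in the unstimulated cycle, so the p of that cycle adds no support. The authors had also reported both as differing in the second cycle, so its p follows a result already known. MiR-27a-5p was read 0, 1 and 0 times in SH and 2, 0 and 0 times in SL, so its groups overlapped. Values of miR-2285p and miR-2300b-3p in the second cycle are not given here. MiR-205 overlapped after superstimulation, with 16.9 to 26.9 in SH and 19.6 to 34.5 in SL (exact permutation p = 0.4). Because the animals were the same, the second cycle repeats the measurement of these heifers and adds no further heifers.

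Of the 7 miRNAs in the muscle list, 6 had a read and 5 were tested, and UL1 was the highest of the 6 libraries for each of the 5. The median log2 fold change of the list was -1.35, against 0.04 over all miRNAs tested, and 1 of 5, miR-206, was called. Without UL1 the median was -0.30, against -0.04 over all. The summed level was 145, 39.1 and 72.2 normalized reads in UH and 1717, 74.0 and 120.5 in UL. UL2 and UL3 thus lay within the range of UH, and UL1 alone was outside.

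MiR-1, the most abundant muscle miRNA, had 91.0, 21.3 and 44.4 normalized reads in UH and 1148, 37.0 and 76.1 in UL. Its log2 fold change moved from -1.72 (95% interval -3.49 to 0.04) to -0.26 (-1.39 to 0.88) when UL1 was left out. MiR-133a, which lies next to miR-1 in the genome, had 48.5, 14.9 and 24.1 in UH and 466, 19.9 and 27.7 in UL. The difference was -1.27 with and 0.14 without UL1 on the log2 scale, a change of sign. Thus UL1 alone lay above the UH libraries for the 2 most abundant muscle miRNAs, whereas for miR-206 all UL libraries did. MiR-133b was read 0 times in UH and 5, 0 and 2 times in UL, and miR-499 was read 1, 1 and 0 times in UH and 8, 0 and 3 times in UL. MiR-208b, a myosin-gene miRNA with 1 read in UH2 and 4 in UL1, did not meet the minimum for the test. In the second cycle, the heifer numbered 1 among the low responders (SL1) had 46.7 normalized reads of miR-1 and 74.9 of miR-133a. Over the SH and SL libraries, miR-1 was at 25.9 to 100 and miR-133a at 21.7 to 74.9 normalized reads. Levels of these 2 as high as in UL1 were thus found at 1 sampling only, whichever later library came from that heifer. For miR-206, SL1 had 40.5 normalized reads, against 12.8 in SL2 and 12.4 in SL3. The muscle list held 0.42% of the reads of SL1, the highest share in SH and SL (0.13 to 0.38% in the others). With the muscle list left out of the scaling, 7 miRNAs were called, the 6 named above and miR-1.

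**Figure D2:**
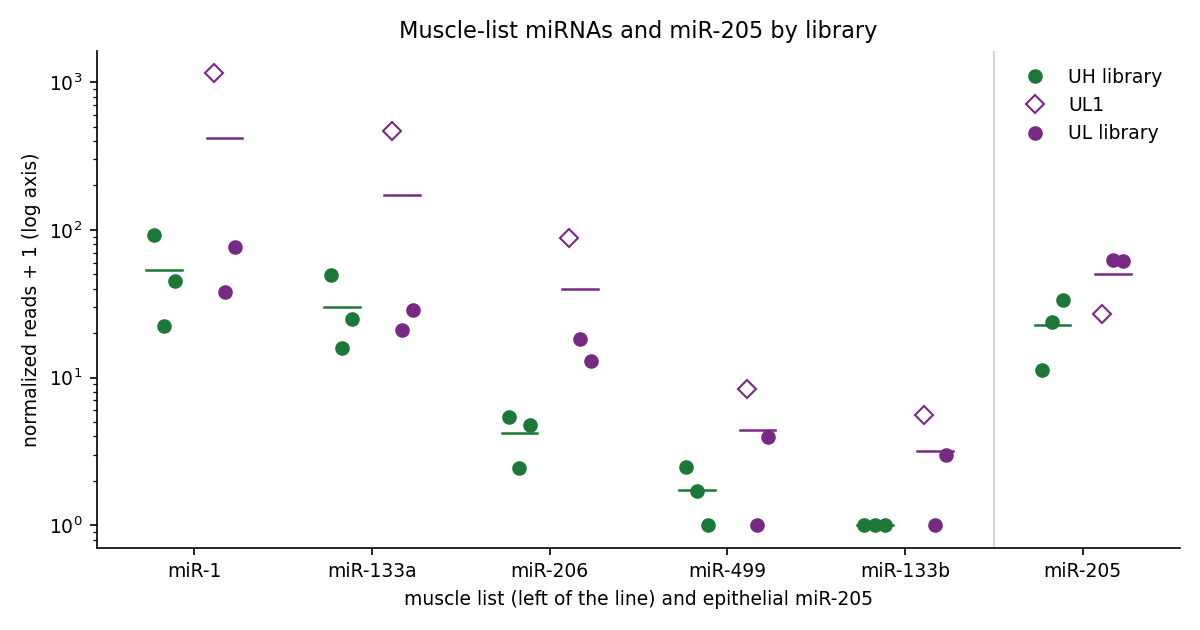
Normalized reads + 1 (log axis) of the 5 muscle miRNAs tested and of miR-205 in each UH (green) and UL (purple) library, with UL1 as an open diamond and lines at the group means. UL1 is the highest library for each muscle miRNA, with 1148 normalized reads of miR-1, while for miR-206 UL2 and UL3 also lie above all UH libraries.

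Leaving out UL1 changed the sign of the log2 fold change of 34 of the 227 miRNAs and moved 3 by at least 1. Besides miR-1 and miR-133a, this was miR-200c, an epithelial miRNA read 4, 4 and 2 times in UH and 0, 15 and 5 times in UL. Its log2 fold change went from -0.13 to -1.20 when UL1, which held no read of it, was left out, in the opposite direction to the muscle miRNAs.

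**Figure D3:**
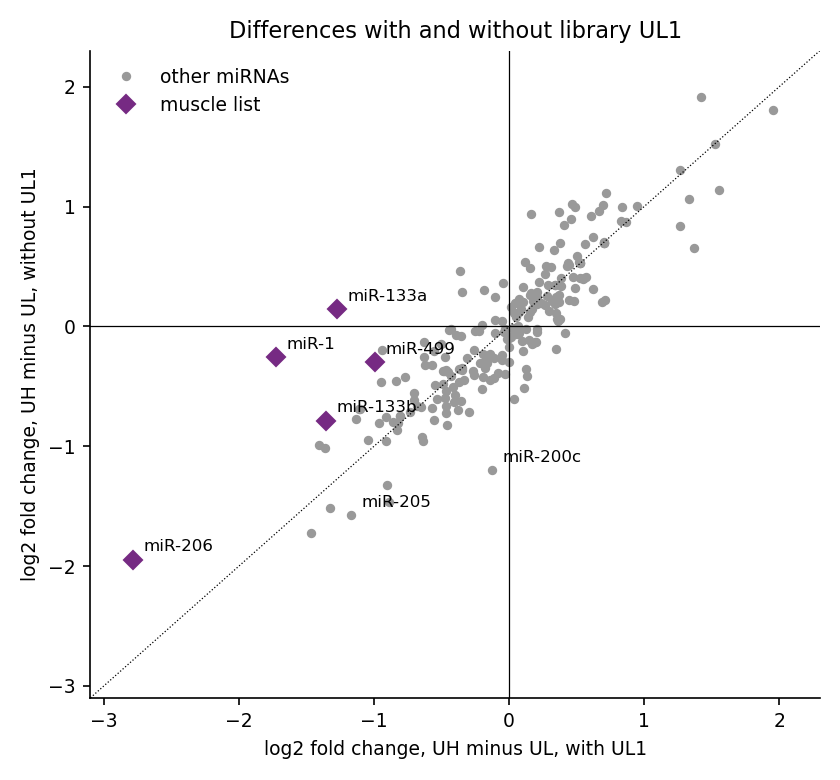
Log2 fold change (UH minus UL) of the 227 miRNAs with UL1 (horizontal axis) and without it (vertical axis), with the muscle list as purple diamonds and a dotted line where both are equal. MiR-1 and miR-133a move from -1.72 and -1.27 to near 0, and miR-206 stays at -1.95.

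Apart from muscle, 11 lists of tissue or locus markers were examined, and in all 12 lists together 2 of the 61 tested members were called, miR-206 and miR-205, a share near the 2.64% over all miRNAs tested. The epithelial list had a median of -0.13 with 4 of 5 members lower in UH, and of -1.20 with 5 of 5 lower without UL1. Its called member was miR-205, and its other members had few reads: miR-141 was read 0 times in UH and 1, 8 and 0 times in UL, and miR-429 had 3 reads in UH2 only. The list of miRNAs described in follicles and corpora lutea had a median of -0.84, the lowest after muscle, and of -0.62 without UL1, when the epithelial median was the lowest, with 6 of 7 members lower in both cases and 0 called. Its most abundant members were miR-21-5p, at 407 ± 200 in UH and 328 ± 31.2 in UL, and miR-320a, at 137 ± 47.5 and 177 ± 63.8 normalized reads (SD, n = 3 each). For both the difference was within the spread between heifers, with log2 fold changes of 0.21 (95% interval -0.46 to 0.87) and -0.36 (-1.05 to 0.34). MiR-378 of the same list had 5.87, 6.40 and 11.3 normalized reads in UH and 24.9, 14.4 and 7.90 in UL, so the groups overlapped.

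Blood cell miRNAs were among the most abundant and showed no called difference. Of the 8 leukocyte miRNAs, 4 were higher and 4 lower, with a median of 0.01 (0.25 without UL1). MiR-223, a myeloid miRNA, had the highest log2 fold change of all miRNAs with at least 10 normalized reads, 0.66 (95% interval -0.01 to 1.34). It had 806, 502 and 935 normalized reads in UH and 693, 356 and 385 in UL, so that UL1 lay inside the range of UH and the other UL libraries below it. Without UL1 its value was 0.96 (0.26 to 1.67), still under the threshold for a call. MiR-142-5p, a miRNA of blood cells, had 330, 117 and 286 in UH and 161, 141 and 167 in UL, with a log2 fold change of 0.51. MiR-155 of activated lymphocytes went the other way without overlap, at 133 ± 4.09 in UH and 183 ± 26.3 in UL (SD, n = 3 each), with a log2 fold change of -0.45 (-1.02 to 0.12). MiR-150 of mature lymphocytes had nearly equal means of 1149 ± 516 and 1196 ± 137, and its log2 fold change was -0.14 (-0.80 to 0.52).

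The erythroid list had a median of -0.35 (-0.12 without UL1) over 3 miRNAs. MiR-486 was at 1770 ± 838 in UH and 1657 ± 813 in UL, and miR-451 at 21.7 ± 15.7 and 31.0 ± 13.0 normalized reads (SD, n = 3 each). The spread between heifers of 1 group was therefore larger than the difference between the groups.

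The endothelial miR-126-3p was the second most abundant miRNA, with 5814, 10536 and 4087 normalized reads in UH and 3541, 6226 and 5480 in UL. Its log2 fold change of 0.35 (95% interval -0.47 to 1.17) was 0.11 without UL1. Of the 4 endothelial miRNAs, 2 were higher and 2 lower, with a median of -0.07 (-0.18 without UL1).

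All 4 liver and gut miRNAs had a log2 fold change above 0, with a median of 0.34, but this was 0.20 with 3 of 4 above 0 when UL1 was left out, and 0 were called. The hepatocyte miRNA miR-122 had 91.0, 641 and 122 normalized reads in UH and 74.7, 151 and 266 in UL. Only UH2 was high. Its log2 fold change was 0.41 (95% interval -0.77 to 1.60) with and -0.06 without UL1. MiR-192, of gut and liver, had 55.8, 74.7 and 117 in UH and 57.1, 46.1 and 105 in UL, which overlapped along the whole range.

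The other lists held 0 called miRNAs. The endocrine list had a median of -0.44 (-0.61 without UL1), with miR-375 of islet and gut endocrine cells at 25.5 ± 8.44 in UH and 35.5 ± 10.5 in UL (SD, n = 3 each). Its other member, miR-7, was read 3, 2 and 10 times in UH and 5, 12 and 3 times in UL. The mesenchymal list had a median of 0.16 (0.30 without UL1). Within it, miR-199a-3p had 67.5, 35.6 and 226 normalized reads in UH and 86.6, 66.8 and 54.3 in UL, so that UH3 alone was high. MiR-143 of smooth muscle was another miRNA with UL1 as its highest library, with 32.3, 29.2 and 20.3 in UH and 71.9, 10.8 and 16.8 in UL. The log2 fold change was 0.16 with and 0.94 without UL1, and the groups overlapped only with UL1.

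Neuronal miRNAs were nearly absent. Of 8 in the list, 4 had a read and 2 were tested, miR-128, which is also made outside neurons, at 97.7 ± 28.1 in UH and 82.3 ± 15.8 in UL (SD, n = 3 each), and miR-138, with at most 1 read in a library. Of the 52 miRNAs of the imprinted DLK1-DIO3 locus in the table, 16 had a read and 10 were tested, with a median of -0.27 (-0.06 without UL1). The 2 with the most reads, miR-432 and miR-127, had log2 fold changes of 0.05 and -0.17. In the HOX clusters, the median was -0.02 (-0.14 without UL1), with miR-10b at 288 ± 86.2 and 306 ± 59.4 and miR-10a at 99.5 ± 37.4 and 90.0 ± 12.9 normalized reads.

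**Figure D4:**
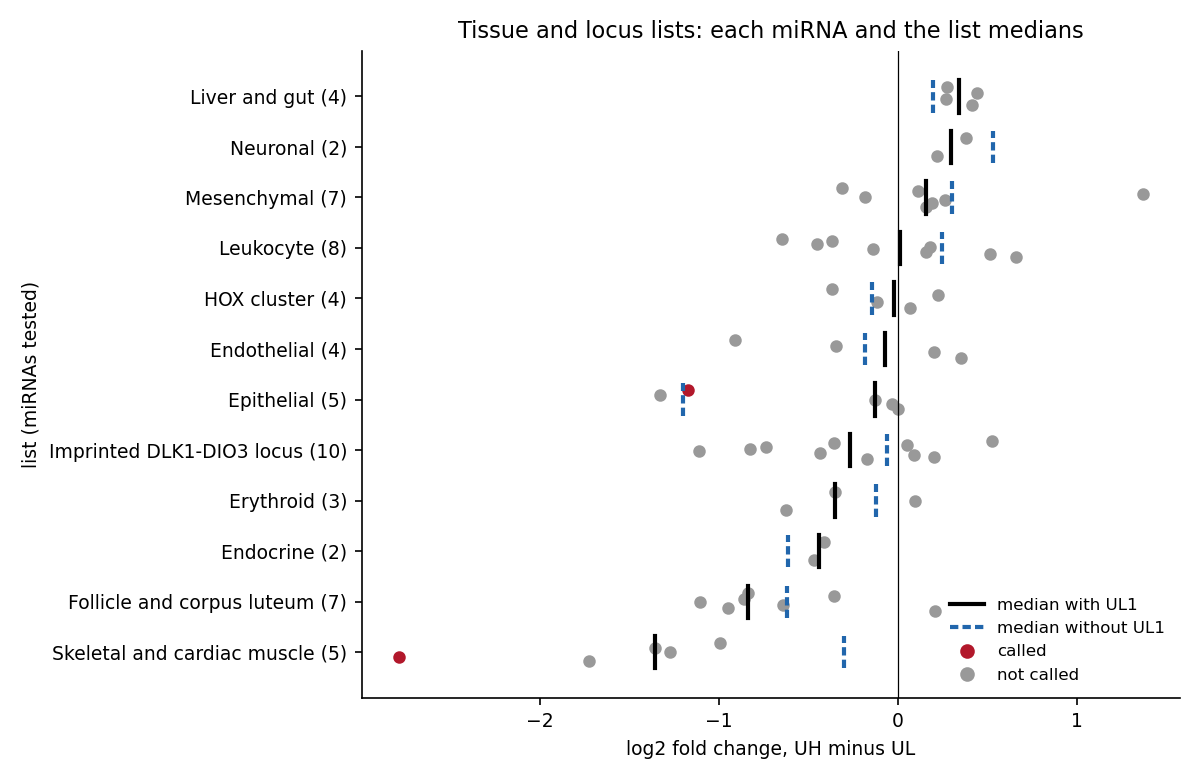
Log2 fold change (UH minus UL, horizontal axis) of each tested miRNA in the 12 lists, with the number tested in brackets, called miRNAs in red, and the list medians with UL1 (black line) and without it (blue dashed line). The muscle median moves from -1.35 to -0.30 and the epithelial median from -0.13 to -1.20, and the remaining medians move less.

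Across the scalings tried, the muscle, erythroid, endocrine, epithelial, follicle and imprinted lists had medians below 0 and the liver, mesenchymal and neuronal lists above 0 under each, while the medians of the leukocyte (-0.10 to 0.18), endothelial (-0.18 to 0.09) and HOX (-0.13 to 0.14) lists changed sign. These directions were less firm when each library was left out in turn. The epithelial median then ran from -1.20 to 0.57, the mesenchymal from -0.40 to 0.30 and the imprinted from -0.48 to 0.04. Those of the muscle, erythroid, endocrine, follicle, liver and neuronal lists kept their sign, with the erythroid median reaching -0.01.

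Families were defined by the seed. The 227 miRNAs had 172 seeds, and 8 seeds were shared by at least 3 of them, 39 miRNAs in all, of which 0 were called with or without UL1, against 2.64% and 1.76% over all miRNAs tested, shares so low that 0 of 39 says little about families. The let-7 family (seed GAGGTAG), which restrains growth and keeps cells differentiated, had 9 members, and all 9 had a log2 fold change above 0, with a median of 0.17. The values were small, from 0.03 for let-7c to 0.43 for let-7g, and without UL1 6 of 9 were above 0. Under the other scalings tried, 5 to 9 of the 9 were above 0. The summed let-7 level was 20442 ± 3745 in UH and 19217 ± 2927 in UL normalized reads (SD, n = 3 each), a difference smaller than the SD between heifers. Let-7g had 151, 149 and 97.7 normalized reads in UH and 107, 83.1 and 101 in UL, and overlapped through UH3.

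The family of miR-130, miR-301 and miR-454 (seed AGTGCAA) had a median of 0.39, the highest with UL1, and of 0.30 without UL1, when the family with the seed AAAGTGC was highest at 0.40. It rested on few reads, with miR-130b at 5.68 ± 4.35 in UH and 5.62 ± 0.90 in UL, and miR-130a at 4.35 ± 4.27 and 4.21 ± 4.93 (SD, n = 3 each). Its member miR-454 was read 3, 3 and 10 times in UH and 0, 1 and 2 times in UL, without overlap. The mean of UH was 1.67 times the limit of 3 reads at which UL is set. UH1 and UH2 were themselves at 3 reads, so this bound rested on UH3. The lowest median, -0.16, was found in the miR-99 and miR-100 family (seed ACCCGTA), with miR-99b at 60.9 ± 34.2 and 60.5 ± 10.6 and miR-99a-5p at 50.4 ± 9.53 and 58.1 ± 6.54. This median ran from -0.27 to 0.00 over the scalings tried. The miR-148 and miR-152 family (seed CAGTGCA) had 3 of 3 members above 0 both with and without UL1, with medians of 0.34 and 0.20. The other 4 families had medians between 0.00 and 0.31.

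MiRNAs from neighbouring genes, and the arms of 1 hairpin, did not always share a sign. Of the 6 tested members of the miR-17 to miR-92a cluster, whose genes lie side by side in the bovine reference, 3 were above and 3 below 0, with a median of 0.02. Among these, miR-19b and miR-92a matched 2 and 3 loci, and miR-18a and miR-19a had at most 7 and 3 reads in a library. The muscle neighbours miR-1 (-1.72) and miR-133a (-1.27), and miR-206 (-2.79) and miR-133b (-1.35), were all below 0. Without UL1, however, miR-133a was above 0. Of 13 hairpins with both arms tested, 6 had both arms on the same side of 0, and 5 without UL1. Some minor arms had very few reads, such as miR-21-3p (mean of 0.58 normalized reads) and miR-23b-5p (0.37), so their signs are uncertain. MiR-423 was an example of opposite signs, with -0.19 for the abundant 5p arm and 0.56 for the 3p arm.

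The calls were few in every class of abundance, against 2.64% over all miRNAs tested. Of 126 miRNAs with a mean under 10 normalized reads, 4 were called, of 57 with 10 to 100, 2 were called, and of the 36 with 100 to 1000 and the 8 over 1000, 0 were called. The 8 most abundant miRNAs held 61.1 to 70.8% of the reads of a library, and the 126 least abundant 0.68 to 1.09%. The median SD within groups on the log2 scale was 0.84, 0.57, 0.38 and 0.32 from the lowest to the highest class, a spread between libraries of different heifers that was smaller for the abundant miRNAs. The median log2 fold change of the 4 classes was 0.01, 0.00, 0.09 and 0.06.

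For abundant miRNAs the intervals show how large a difference could have been missed. The 95% interval lay within a 2-fold change in both directions for 0, 10, 25 and 7 miRNAs of the 4 classes, 42 in all, and for 25 in all without UL1. Let-7b, the most abundant miRNA, had 10335, 12862 and 7593 normalized reads in UH and 7978, 12134 and 9068 in UL. The difference was 0.07 on the log2 scale, with an interval of -0.71 to 0.84. Among the 10 most abundant miRNAs, the groups overlapped for all 10, and the log2 fold changes ran from -0.19 (miR-423-5p) to 0.35 (miR-126-3p), and from -0.42 to 0.21 without UL1. Let-7a-5p, at 5660 ± 1199 in UH and 5364 ± 653 in UL, and let-7f, at 2277 ± 211 and 2128 ± 272 (SD, n = 3 each), had intervals of -0.63 to 0.75 and -0.50 to 0.70. Let-7c had the smallest difference of these 10, with 1143 ± 133 and 1137 ± 271 and an interval of -0.57 to 0.62. Intervals for miR-342, a lymphocyte miRNA (-0.40 to 0.76), and for miR-1468 (-0.78 to 0.68) were also within 2-fold. For the 126 least abundant miRNAs, in contrast, every interval reached past a 2-fold change in at least 1 direction.

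**Figure D5:**
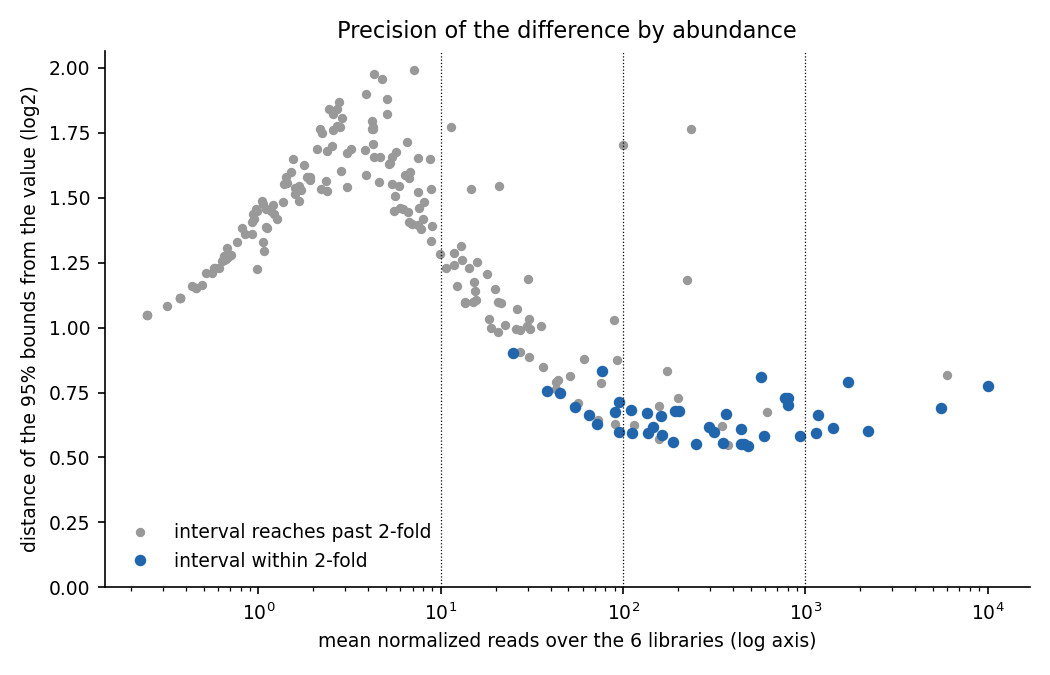
Distance of the 95% bounds from the log2 fold change, on the log2 scale, against the mean normalized reads of each of the 227 miRNAs (log axis), with dotted lines at 10, 100 and 1000 and with the 42 miRNAs whose interval lies within 2-fold in blue. None of the 126 miRNAs under 10 reads is blue, and 7 of the 8 over 1000 are.

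The groups did not overlap for 17 miRNAs (7.49%), 9 above and 8 below in UH, and for 40 (17.6%) without UL1, when only 2 UL libraries were left. Complete separation has an exact permutation p of 0.1 with 3 against 3 libraries and of 0.2 with 3 against 2 (two-sided). Both shares were below these rates, so a lack of overlap alone does not mark a difference between the groups. Most of the 17 had small differences. MiR-186 had 120, 100 and 109 normalized reads in UH and 83.9, 74.9 and 56.3 in UL, with a log2 fold change of 0.62 (95% interval -0.01 to 1.25). MiR-151-3p had 455, 428 and 437 in UH and 259, 366 and 302 in UL, with a log2 fold change of 0.52 (-0.03 to 1.07). Both were close in the 3 UH libraries and lower in each UL library, but under the 2-fold threshold. MiR-92a went the other way, with 129, 127 and 102 in UH and 135, 187 and 145 in UL, and a log2 fold change of -0.37 (-0.96 to 0.22). MiR-423-3p overlapped by a narrow margin, with 47.0, 40.6 and 67.7 in UH and 40.6, 33.4 and 28.7 in UL. Besides miR-206, miR-1, miR-133a and miR-205, the lowest log2 fold change among miRNAs with at least 10 normalized reads was that of miR-378, -0.84 (-2.13 to 0.45).

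The number of miRNAs detected was similar in the 2 groups. In at least 2 of 3 libraries, 204 miRNAs were found in UH and 201 in UL, 178 of them in both, which left 26 for UH only and 23 for UL only. In all 6 libraries, 141 were found. For 42 of the 227, miR-2285p among them, both groups had at most 3 reads in every library, and at this depth no size of a difference can be given for these.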

How the data were processed

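Small RNA of plasma EVs was sequenced by the authors with a kit that adds UMIs. Reads were collapsed by UMI, mapped to UMD3.1 with Bowtie2 2.2.2 (versions from the submitters' processing notes) and annotated by perfect match against miRBase. The deposited values are a score, tags per 1000000 mapped reads that the authors cut down to integers, for 783 miRNAs and 12 libraries, with 0 columns unused. For their own comparisons the authors used edgeR with TMM normalization.

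Whole reads were calculated back from the step between values in each library, scaled with TMM factors over the 12 libraries (trimming 30% of log ratios and 5% of abundances) and set to the mean depth. UH and UL were compared on log2(normalized reads + 1) by limma 3.58.1 under R 4.3.3, with a mean-variance trend, two-sided, and Benjamini-Hochberg adjustment over the 227 miRNAs. The fit was run on simulated counts with the same dispersion for all miRNAs and no outlying library, so the run says nothing about a library such as UL1. Each P value sets a difference against the spread between libraries of different heifers. That spread includes the counting error of each library, and limma moderates it with values from the other miRNAs. Intervals of 95% are those of the limma fit. Groups in which no library exceeded 3 reads were taken as at the limit of detection, which covers counting error only. The groups came from the sample labels, and the thresholds for a call were those in the methods of the study.

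Members and lists were chosen with earlier results of these data known. The text names all called miRNAs, the 10 most abundant, the muscle list, the 5 highest and the 5 lowest log2 fold changes at a mean of at least 10, those read in all libraries of 1 group only, and the 2 most abundant of each other list and of the seed groups with the highest and lowest median. Others were named after their values were seen. RefSeq genes (225 of 227 miRNAs matched) were used for neighbours within 10 kb only. Tables were made with matplotlib 3.10.9, scipy 1.17.1, pandas 2.3.3 and numpy 2.4.6 under Python 3.11.15. Alternatives were other scalings, filters, pseudocounts and fits, and leaving out each library.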

Additional observations from a re-analysis of the deposited data

How the results depend on the processing

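The same 6 miRNAs were called with median-of-ratios factors and with TMM over the 6 unstimulated libraries. Without the mean-variance trend the number called was also 6, but miR-374a and miR-454 took the place of miR-205 and miR-27a-5p. The number was 8 without TMM, and 7 with mapped reads as library sizes, without the muscle list in the scaling or with all 4 groups. It was 4 with a pseudocount of 2, miR-454 among them. The number was 10 without a filter on low reads and 1 of 101 at a mean of at least 10 normalized reads, where fewer miRNAs were tested. Leaving out 1 library gave 4 (UL1) to 10 (UH2). With UL1, miR-206 was called under all 11 other settings, and it was called without each of the 6 libraries; with UL1 left out it was not called with mapped reads, in the replicate block fit or without UH2, UL2 or UL3 as well. Of the others, miR-6517 was called under all 10 that tested it and without 4 of 6, and miR-205 under 8 of 11 settings and without 3 of 6. MiR-1 was also called without TMM, with mapped reads, without the muscle list in the scaling, without a filter and without UL2. An adjusted p under 0.05 (limma) was found for miR-1 and miR-206 without a filter (lowest 0.000216), and the cause was not tested. With UL1 left out, the lowest adjusted p without a filter was 0.764 (limma), and miR-1 was not called. The share of calls higher in UH, 33.3%, ran from 25.0 to 42.9% over the scalings, and with mapped reads the median of all miRNAs rose from 0.04 to 0.16. Without UL1, the 4 calls became 2 at a mean of at least 10, and 3 to 10 when a further library was left out. With UL1 and UL2 or UL3 left out, the lone UL library is assumed to vary like UH. Intervals within 2-fold, 42, fell to 13 with mapped reads and 14 without the trend, and were 25 to 36 without 1 library. In the replicate block fit, 9 were called, and miR-1 and miR-206 had an adjusted p under 0.05 (lowest 0.0115, limma). With UL1 left out, the lowest adjusted p of the block fit was 0.984 (limma), and neither of these was called. The numbers do not pair the libraries, which came from different heifers: the deviations of same-numbered UH and UL libraries had correlations of -0.03, 0.01 and -0.03. Of the 126 miRNAs under 10 reads, 0 had an interval within 2-fold; depth and spread between heifers were not separated. No result named here changed its direction while called.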
